A study of Mus musculus with 44 samples.

Results

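Left and right hippocampi of sedentary mice were compared by translating ribosome affinity purification and sequencing (TRAP-seq), which captures the mRNA bound to a tagged ribosomal protein. Of the 44 samples of the series, 20 were TRAP-seq libraries in the deposited count table, and the comparison rests on 6 of them, 3 left and 3 right. The mice were male Emx1-NuTRAP animals, offspring of Emx1-IRES-Cre females and NuTRAP males, so that cells which have expressed Emx1 carry the tag. Emx1-Cre is active mainly in excitatory neurons of the forebrain, and also in neural progenitors and part of the astrocytes. Sedentary mice stayed in standard cages and tissue was taken at P42. One hippocampus of each mouse went to TRAP and the other to isolation of nuclei, so the left and right libraries came from different mice and no animal gave both. The sedentary left libraries came from mice TG7.3.4, TG9.1.2 and TG9.2.4 and the right ones from mice TG7.3.3, TG9.1.1 and TG9.2.3. Early-life exercise (ELE) mice of the same genotype had a running wheel from P21 to P41 and gave 3 left (TG7.3.2, TG9.1.4 and TG9.2.2) and 3 right libraries (TG7.3.1, TG9.1.3 and TG9.2.1), used here to see how the sedentary values stood in other animals. Which hemisphere each column of the count table belongs to was taken from the study's sample quality table. Reading the columns in the order of the samples would give the opposite hemisphere for every separately isolated library, in which case each direction below would be turned round and the sizes would stay.

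The hippocampus is built from the same subfields on both sides: the dentate gyrus, whose granule cells send mossy fibres to CA3, and the pyramidal cells of CA3, CA2 and CA1. In the mouse, synapses of CA3 axons on CA1 cells are known to carry glutamate receptor subunits in amounts that depend on the hemisphere of the CA3 cell, an asymmetry linked to MHC class I molecules and their receptor PirB. The choroid plexus, which makes cerebrospinal fluid, and the meninges lie against the hippocampus and can stay attached when it is dissected.

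Sedentary libraries held between 45895097 and 56736163 counts, and 3 counts corresponded to at most 0.0664 CPM, the unit used here for a gene's counts relative to the scaled total of its library. Same-side libraries were never alike within counting error: the chi-square statistic divided by the number of genes was 18.9 in the closest of 6 pairs and 57.7 in the most distant. Emx1 was at 17.8, 21.3 and 19.6 CPM on the left and at 25.6, 21.7 and 19.3 CPM on the right. Lists that mark forebrain excitatory neurons, granule cells, CA1, CA2 and CA3 had counts for every gene matched to the table. Defining markers of microglia were near 0, with Cx3cr1 between 0.428 and 0.745 CPM and Tmem119 without a count in 2 libraries. Markers of oligodendrocytes and astrocytes were well detected, as Mbp at 1188 to 2085 CPM shows. In such libraries, fewer cells of a type and less RNA per cell cannot be told apart. A pair of right libraries stood apart from the rest: TG9.1.1 for reactive astrocyte genes and Npy, and TG7.3.3 for endothelial genes.

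Of 17670 genes tested, 136 had higher and 161 had lower levels in left libraries. A gene was called in this way, with the thresholds of the study, where its unadjusted p was under 0.05 and its fold change, in either direction, was over 1.31, or 0.3875 on the log2 scale. These are 0.77% and 0.911% of the genes tested, and 1.68% together. Without the fold threshold 440 genes, or 2.49%, had an unadjusted p under 0.05, where 884 would be counted if the test were exact and no gene differed. After Benjamini-Hochberg adjustment edgeR's quasi-likelihood test gave 0 genes, and its adjusted p was 1 for every gene at 3 digits. It gave 4 genes after adjustment without TG9.2.4 and 37 without the filter on low counts, of which 32 were among the genes tested here. DESeq2 gave 2 genes at an adjusted p under 0.05, Lars2 and the non-coding Gm30025. For 7.71% of the genes tested, all CPM values of one side lay above all those of the other. The p-values given with single genes below are unadjusted values of the edgeR test over all genes, and each of these genes has an adjusted p of 1 in the fit to all 6 libraries. The plot of all genes shows both sets of called genes.

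**Figure D1:**
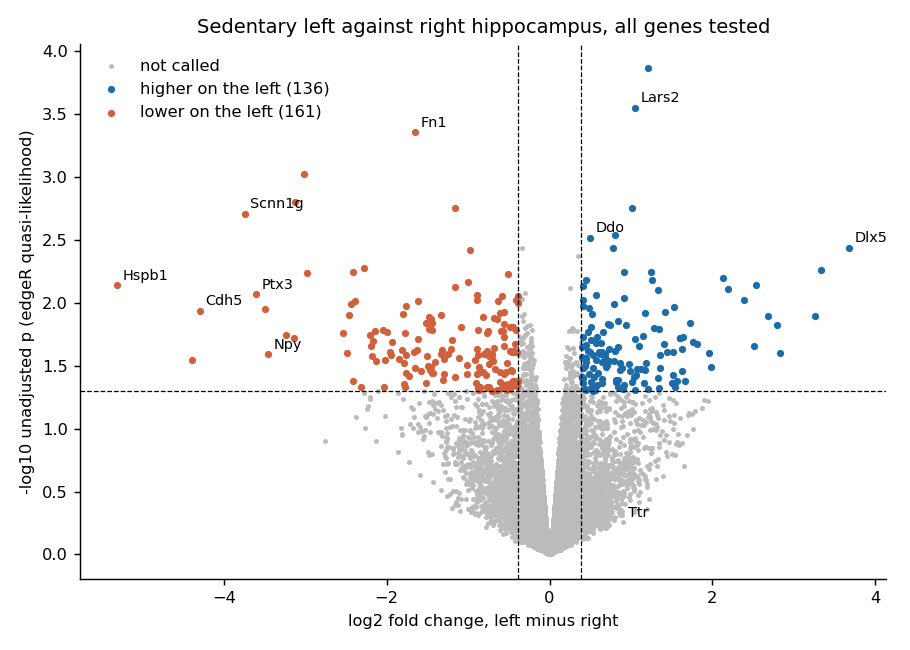
Each point is a gene, with log2 fold change of left minus right on the horizontal axis and -log10 of the unadjusted p on the vertical axis. The 136 genes higher on the left are blue and the 161 lower are orange, dashed lines mark the thresholds, and Lars2, Fn1 and Ttr are among the labelled genes.

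The makeup of the called genes was counted in the 2 directions. Of those lower on the left, 133 of 161 were protein coding, against 95 of 136 of those higher. The protein-coding share of all genes tested is not given here, and this difference was not tested. In 47 of the 161 lower genes a single library exceeded every other library by more than 2-fold, and that library was TG9.1.1 for 34 genes, TG7.3.3 for 12 and TG9.2.3 for 1, the predicted gene Gm43364. Among the 136 higher genes this held for 6. Over all tested genes, TG9.1.1 exceeded the others in this way for 170 genes, or 0.962%, TG7.3.3 for 81 and each other library for between 20 and 29.

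Among genes higher on the left, Lars2, the mitochondrial leucyl-tRNA synthetase (chr9:123366927-123462666, plus strand, GRCm38), had the smallest p of the protein-coding genes. Its level was 192.1, 182.4 and 113.2 CPM in the left libraries and 66.9, 74.7 and 94 CPM in the right libraries. All left libraries lay above all right ones, and TG9.2.4 was closest to the right side. The log2 fold change was 1.05 ± 0.19 (SE, n = 3 per side, edgeR, unadjusted p = 0.000284), and it stayed between 0.91 and 1.25 when each library was left out. Lars2 moved together with loci that hold ribosomal RNA sequence, which are described further on.

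Ddo, which encodes D-aspartate oxidase, an enzyme that degrades the NMDA receptor agonist D-aspartate, was at 15, 14.9 and 14.9 CPM on the left and at 9.6, 10.2 and 12 CPM on the right. The left libraries were nearly equal and the right ones all lower, with a log2 fold change of 0.5 ± 0.13 (edgeR, unadjusted p = 0.00306). Tmem114, a claudin-like membrane protein, was at 10.8, 10.3 and 12.4 CPM on the left and at 8.28, 4.63 and 6.39 CPM on the right. Its log2 fold change was 0.8 ± 0.2 (edgeR, unadjusted p = 0.00293), with the right libraries spread over a wider range than the left.

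Cldn19, a claudin of tight junctions that is present in myelinating Schwann cells and in kidney, was at 2.14, 2.25 and 2.77 CPM on the left against 1.04, 1.37 and 1.4 CPM on the right. The groups did not overlap and the log2 fold change was 0.91 ± 0.26. Apod, an apolipoprotein of oligodendrocytes, astrocytes and perivascular cells, was at 25.3, 26.5 and 28.8 CPM against 23.2, 16.8 and 19.2 CPM, a log2 fold change of 0.45 ± 0.13. Without TG9.1.1 it fell below the fold threshold, at 0.34. Krt9, a keratin, was at 12.1, 11 and 11.6 CPM against 9.03, 8.6 and 8.39 CPM, without overlap, and its log2 fold change was 0.42 ± 0.12. Without TG7.3.4 it was 0.38 and below the fold threshold.

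Rnase1, the secreted pancreatic-type ribonuclease, which endothelial cells also release, was at 1, 1.05 and 1.46 CPM on the left and at 0.598, 0.306 and 0.49 CPM on the right. This is a log2 fold change of 1.33 ± 0.4 on 196 left and 69 right counts. Cyp26a1, which degrades retinoic acid, had a log2 fold change of 2.14 ± 0.62 on 90 and 18 counts, with all left libraries at or above 0.318 CPM and all right ones at or below 0.163 CPM. Dlx5, a homeobox gene of developing interneurons, had 77 left counts and 5 right counts, with log2 fold change 3.68 ± 0.97. Most of the left counts of Dlx5 came from TG9.1.2, which was at 0.805 CPM where the other left libraries were at 0.281 and 0.316 CPM.

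The remaining genes of this group were low. Slc5a10, a sodium-coupled sugar transporter, had 49 left and 4 right counts. Fxyd3, a regulator of the sodium pump, had 58 and 11 counts, and Pole2, a subunit of DNA polymerase epsilon, 61 and 9. Their log2 fold changes were 3.34 ± 0.94, 2.19 ± 0.66 and 2.53 ± 0.75. TG7.3.4 held 32 of the left counts of Pole2, whose call was lost without it, at 2.07. Where the mean over the 6 libraries was 1 CPM or more, the largest differences toward the left among protein-coding genes beside Lars2 and Cldn19 were those of Magel2, Gpr139 and Stk33. Magel2, an imprinted gene of the Prader-Willi region, was at 4.37, 1.57 and 1.74 CPM against 1.5, 0.775 and 0.89 CPM, and TG7.3.4 alone set its size. The fold change of Magel2 was 2.43, and without TG7.3.4 its log2 value was 0.65 and no longer called. The call of Magel2 was also lost without TG9.2.3, at 1.17. Gpr139, an orphan receptor that responds to aromatic amino acids, had a log2 fold change of 0.98 ± 0.39 and lost its call in 4 of 6 fits that left out a library. Stk33, a serine/threonine kinase, had 0.98 ± 0.4 and lost it in 3.

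Among genes lower on the left, Fn1, which encodes the extracellular matrix protein fibronectin (chr1:71585520-71653200, minus strand, GRCm38), had the smallest p. Fn1 was at 4.1, 6.53 and 5.09 CPM in the left libraries and at 20.2, 20.8 and 8.34 CPM in the right ones. TG9.2.3 was closest to the left side, and the groups did not overlap. The log2 fold change was -1.65 ± 0.32 (edgeR, unadjusted p = 0.000444), and between -1.97 and -1.44 when each library was left out. Fn1 marks endothelial and mural cells, fibroblasts and neurons of the subiculum, and of the 10 genes in the list of subiculum and retrohippocampal neurons it was the only one called.

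Eln and Bgn were also called lower on the left. Eln, the elastin gene, was at 2.96, 3.11 and 3.62 CPM on the left and at 5.62, 10.8 and 5.29 CPM on the right, with TG9.1.1 highest. Its log2 fold change was -1.16 ± 0.27, and -0.75 without TG9.1.1. Bgn, which encodes the proteoglycan biglycan, was at 7.24, 6.61 and 7.97 CPM against 10.4, 17.8 and 7.5 CPM, so that TG9.2.3 lay within the left range. The log2 fold change of Bgn was -0.71 ± 0.27 and fell to -0.29 without TG9.1.1.

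Il1r1, the interleukin-1 receptor, was at 7.56, 6.19 and 5.69 CPM on the left against 11.9, 18.1 and 8.17 CPM on the right. Its log2 fold change was -0.97 ± 0.26 (edgeR, unadjusted p = 0.00384), and between -1.21 and -0.63 across the fits without 1 library, with the call kept in each. Plcg2, a phospholipase of immune receptor signalling, was at 1.05, 1.33 and 0.895 CPM against 2.35, 1.65 and 2.54 CPM, a log2 fold change of -1 ± 0.29. Ptx3, the long pentraxin, was at 0.929, 1.22 and 0.948 CPM against 1.26, 34.7 and 1.67 CPM. Ptx3 did not overlap between the sides, but its log2 fold change of -3.6 ± 1.1 became -0.51 without TG9.1.1.

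Elfn1, a synaptic adhesion protein that recruits metabotropic glutamate receptors opposite the terminals it contacts, was at 8.75, 11.2 and 12.1 CPM on the left and at 15.2, 14.1 and 16.3 CPM on the right. All left libraries were below all right ones, with log2 fold change -0.51 ± 0.15 (edgeR, unadjusted p = 0.00598). Elfn1 was below the fold threshold without TG7.3.4, at -0.38. The low genes of this direction were Acot12, an acetyl-CoA thioesterase, Scnn1g, a subunit of the epithelial sodium channel, Ebf1, a transcription factor of B cells and pericytes, and Cenph, a kinetochore protein. Acot12 had 11 left and 81 right counts, Scnn1g 5 and 63, Ebf1 15 and 71 and Cenph 8 and 58, with log2 fold changes of -3.01 ± 0.65, -3.74 ± 0.9, -2.42 ± 0.69 and -2.97 ± 0.85. Plb1, a phospholipase, was at 1.21, 1.18 and 1.33 CPM on the left and at 1.9, 4.36 and 2.03 CPM on the right, and TG9.1.1 was highest. The log2 fold change of Plb1 was -1.15 ± 0.34, and -0.66 without TG9.1.1, still called. The plot of 12 of these genes by library shows the spread within each side.

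**Figure D2:**
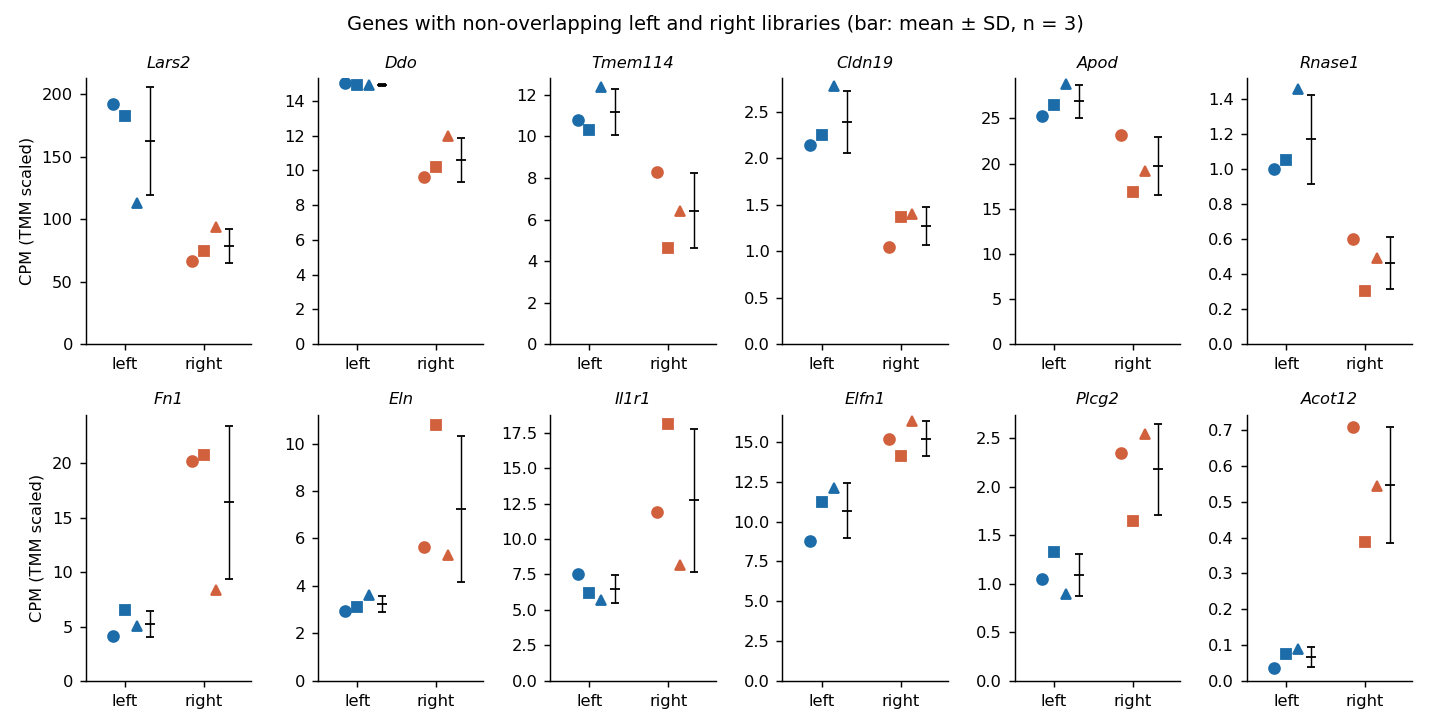
Each panel gives the CPM of 1 gene in the 3 left (blue) and 3 right (orange) sedentary libraries on a linear axis from 0, with the mean ± SD (n = 3) as a bar; circles are TG7.3.4 and TG7.3.3, squares TG9.1.2 and TG9.1.1, and triangles TG9.2.4 and TG9.2.3. No panel has overlapping groups, and for Fn1 and Eln the right libraries are spread more widely than the left.

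Of the 297 called genes, 34 were called in each of the 6 fits that left out 1 library, 17 higher and 17 lower on the left. Lars2, Tmem114, Ddo, Dlx5, Slc5a10, Cldn19, Cyp26a1, Fxyd3 and Rnase1 were among the first, and Fn1, Acot12, Eln, Scnn1g, Il1r1, Ebf1, Cenph, Plcg2, Plb1 and Hba-a1 among the second. Leaving out 1 library removed between 97 and 161 of the 297 calls, and the total ranged from 260 without TG7.3.4 to 650 without TG9.2.3 and 512 without TG7.3.3.

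Gene lists for cell types, regions, receptors and states were then read for what followed the side and what followed the mouse. Together 35 lists held 417 tested genes, of which 6 were called higher and 13 lower on the left, or 4.56% against 1.68% of all genes, and 6.95% did not overlap against 7.71%. The lists were chosen with earlier results of these data known, so the share called is not a test of them. Lars2 and loci that hold ribosomal RNA sequence made up 4 of the 6 higher calls. The lower calls include near-identical alpha-globin copies and genes set by 1 library. The median log2 fold change of all genes was 0, to 2 decimals. The plot of the summed levels shows the lists that varied most between libraries, those of choroid plexus, endothelium and reactive astrocytes and the loci that hold ribosomal RNA sequence.

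**Figure D3:**
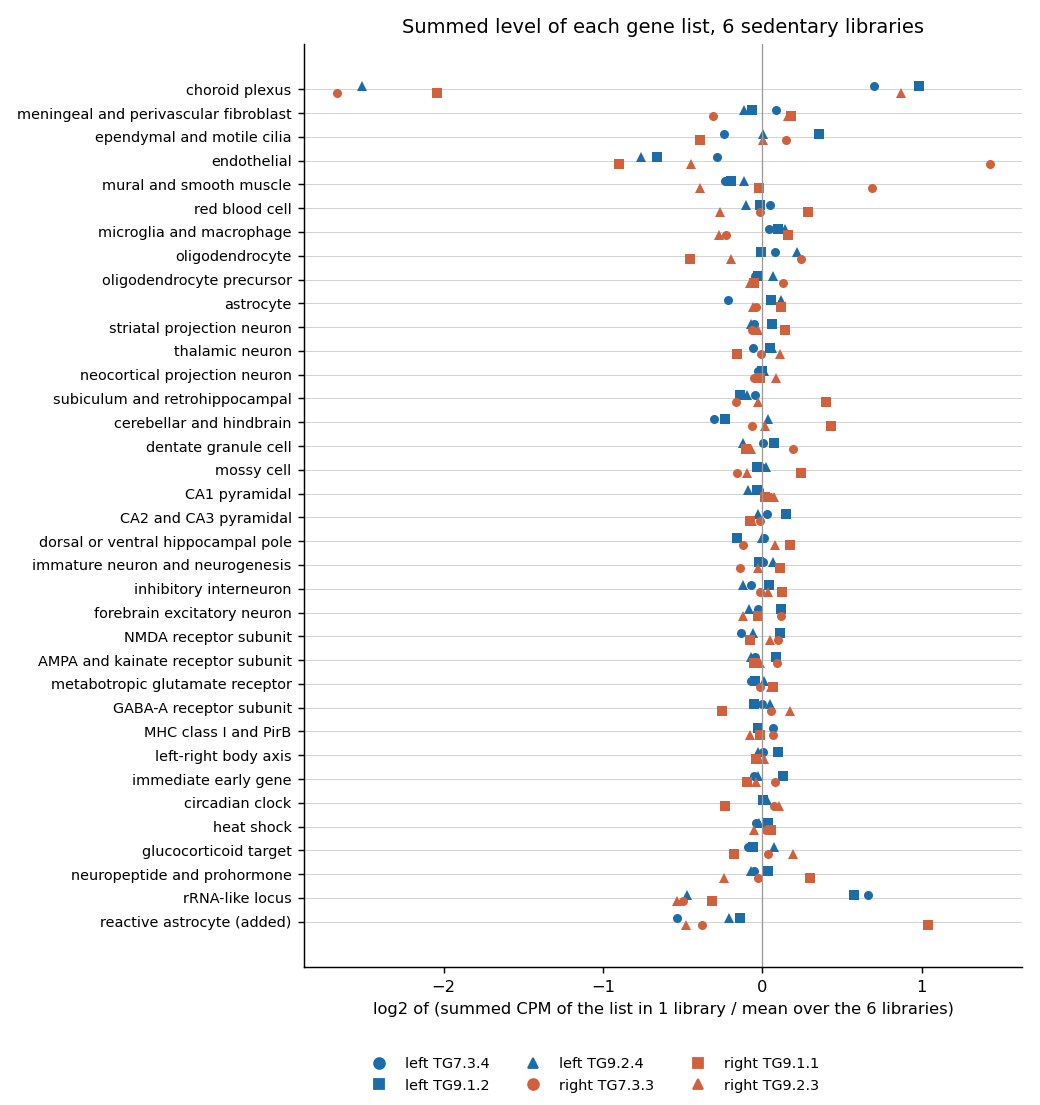
Each row is a gene list and each point a sedentary library, blue for left and orange for right, placed at the log2 ratio of its summed CPM to the mean of the 6 libraries. Most neuronal and receptor lists lie within a narrow band around 0, while the choroid plexus list splits into 3 high and 3 low libraries that do not follow the side.

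Choroid plexus genes were high in 3 sedentary libraries, 2 left and 1 right. Ttr, transthyretin, the main secreted protein of choroid plexus epithelium, was at 953.6, 1174 and 12.1 CPM in the left libraries TG7.3.4, TG9.1.2 and TG9.2.4 and at 13.4, 55.4 and 1078 CPM in the right libraries TG7.3.3, TG9.1.1 and TG9.2.3. Thus both sides held high and low libraries. Kcnj13, a potassium channel of the same epithelium, was at 2.16, 2.75 and 0 CPM on the left and at 0.177, 0.204 and 2.23 CPM on the right. Folr1, the folate receptor that carries folate into cerebrospinal fluid, was at 6.58, 8.74 and 0.597 CPM against 0.996, 0.713 and 5.7 CPM. The same 3 libraries were high for each.

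Summed over 24 choroid plexus genes, the level was 1715, 2082 and 184.6 CPM on the left and 165.9, 256.6 and 1928 CPM on the right. Of the 24 genes 0 were called and 0 had non-overlapping sides by edgeR, the lowest unadjusted p being 0.087. All 24 nonetheless had a positive log2 fold change with a median of 0.71 against 0 for all genes, as 2 of 3 left and 1 of 3 right libraries were high. In ELE mice the sum was 1729 CPM in 1 library, TG7.3.2 on the left, and between 153.8 and 266.2 CPM in the other 5. The values hang on 1 library in each group of mice. Without TG9.2.3, the high right library, the sedentary log2 fold changes of Ttr and Folr1 went from 0.9 ± 1.5 and 1.09 ± 0.89 to 4.37 and 2.63 and were called, and Folr1 was also called without TG9.2.4, at 1.62. In ELE mice, where TG7.3.2 was the high library, Ttr and Folr1 were called higher on the left at 5 ± 1.7 and 3.08 ± 1.1. High libraries were thus found on both sides and in both exercise groups, 4 of 12 in all, and their part in other results was not tested.

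Endothelial genes were highest in 1 mouse, TG7.3.3. Flt1, a VEGF receptor, was at 0.754, 0.15 and 0.281 CPM on the left and at 10.3, 0.673 and 0.345 CPM on the right, where TG7.3.3 held nearly all counts. Its log2 fold change was -3.23 ± 1.1 with overlapping groups, and -0.36 without TG7.3.3. Cdh5, the cadherin of endothelial junctions, was at 0.158, 0 and 0 CPM against 2.85, 0.204 and 0.218 CPM. Cdh5 did not overlap between the sides, and its log2 fold change of -4.29 ± 1.4 was -1.94 ± 1.4 without TG7.3.3 and no longer called. Kdr, the other main VEGF receptor, was at 1.74, 2.13 and 1.51 CPM against 5.13, 2.63 and 1.96 CPM, a log2 fold change of -0.85 ± 0.35 that was -0.36 without TG7.3.3. Cldn5, the tight junction claudin of brain vessels, was at 7.44 CPM in TG7.3.3 and between 0.211 and 1.58 CPM in the other 5, and was not called. The log2 fold change of Cldn5 was -1.81 ± 1, and 0.69 without TG7.3.3.

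Of 14 tested endothelial genes, 3 were called, all lower on the left, 0 were called higher, and the median log2 fold change was -1.58 against 0 for all genes. Their summed level was 58.3 CPM in TG7.3.3 and between 11.6 and 17.8 CPM in the other 5 sedentary libraries and between 12 and 16.1 CPM in ELE libraries. Mural and smooth muscle genes were highest in the same library, at 50.8 CPM against at most 31.1 CPM, with Myh11, smooth muscle myosin, at 4.12 CPM against 0.0701 to 0.597 CPM. None of the 7 tested mural genes was called by edgeR, and Myh11 had a log2 fold change of -2.28 ± 1 with an unadjusted p of 0.0518, and 0.02 without TG7.3.3. Both classes of vessel cell were thus highest in TG7.3.3, and their part in the matrix genes above was not tested. Fn1 was at 20.2 CPM in TG7.3.3 and at 20.8 CPM in TG9.1.1, where the endothelial sum was the lowest of the 6.

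Alpha-globin transcripts, a sign of red blood cells, were called lower on the left. Hba-a1 was at 1.74, 1.59 and 1.46 CPM on the left and at 3.36, 1.92 and 3.18 CPM on the right, a log2 fold change of -0.82 ± 0.27 without overlap. Hba-a2 was at 1.6, 1.82 and 2.04 CPM against 2.85, 2.02 and 3.41 CPM, -0.61 ± 0.26 with overlap between TG9.2.4 and TG9.1.1. The call of Hba-a2 was lost in 4 of 6 fits that left out a library and that of Hba-a1 in 0. Hbb-bs, the beta-globin partner, was at 0.684, 0.954 and 1.35 CPM against 3.65, 0.734 and 2.09 CPM and was not called. The alpha-globin genes Hba-a1 (chr11:32283511-32284465) and Hba-a2 (chr11:32296489-32297298, both GRCm38, plus strand) are near-identical copies whose coding sequences of 426 bases differ at 1 base, so that reads of 100 bases can often not be assigned to one of them and their values are not independent. Coding bases 351 to 410 around that base, in GENCODE transcripts and with the differing base in capitals, are shown to make this plain.
Hba-a1: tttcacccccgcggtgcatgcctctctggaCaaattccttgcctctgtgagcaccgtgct
Hba-a2: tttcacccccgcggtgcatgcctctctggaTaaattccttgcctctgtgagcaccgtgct
The longest stretch shared by the 2 transcripts is 415 bases. Of 6 tested genes in the list of red blood cells, the 2 called were these copies.

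The meningeal and perivascular fibroblast genes did not follow the side. Col1a1 was at 0.473, 2.69 and 1.49 CPM on the left and at 2.12, 2.59 and 1.14 CPM on the right, and Dcn at 34.8, 16.1 and 28.5 CPM against 13.8, 27.4 and 34.6 CPM. Of 18 tested genes only Bgn was called. Summed levels were 80.9, 72.8 and 70.3 CPM on the left and 61.5, 86.2 and 85 CPM on the right, with overlapping ranges. Ependymal and motile cilia genes were called in 0 of 14 cases by edgeR, with Foxj1, the master regulator of motile cilia, at 14.6, 23.5 and 15.7 CPM against 17.1, 13.3 and 16.5 CPM.

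Oligodendrocyte genes leaned to the left without passing the threshold, except for 1. Ermn, a cytoskeletal protein of myelinating cells, was at 16.8, 17.8 and 21.5 CPM on the left and at 16.7, 12.6 and 13.2 CPM on the right, with log2 fold change 0.4 ± 0.15. The left and right libraries nearly touched, and the call was lost in 3 of the 6 fits that left out a library. Mog, a surface glycoprotein of myelin, was at 50.4, 41.3 and 53.5 CPM against 48.6, 33 and 42.6 CPM. All 14 genes had a positive log2 fold change, between 0.16 and 0.44 with a median of 0.23, and 1 was called. The summed level was lowest in TG9.1.1, at 2726 CPM, and highest in another right library, TG7.3.3, at 4414 CPM, so the sides overlapped. Oligodendrocyte precursor, astrocyte and microglial lists had medians of -0.02, 0.12 and 0.14, with 0 called genes of 10, 16 and 9 by edgeR.

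The library of TG9.1.1 stood apart in genes that reactive astrocytes and injured tissue express, and several of the genes lower on the left came from it. Npy, neuropeptide Y, an inhibitory peptide made by interneurons and induced in granule cells by strong activity, was at 2.3, 3.05 and 2.09 CPM on the left and at 1.17, 79.1 and 1.34 CPM on the right. Without TG9.1.1 the log2 fold change of Npy changed from -3.46 ± 1.3 to 0.98 ± 0.29, called in the opposite direction, since the other 2 right libraries were below every left one. The call was also lost without TG7.3.4, TG9.1.2 or TG9.2.4. Hspb1, a small heat shock protein, was at 0.596, 0.786 and 0.123 CPM against 0.775, 58.1 and 0.817 CPM. Hspb1 had the largest fold change among the genes named, -5.31 ± 1.6, which was -0.67 without TG9.1.1 and no longer called.

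The same library was highest for 17 of 18 genes of a reactive astrocyte list picked for this pattern after values were seen, which is therefore described and not tested as a group. The 17 include Lcn2 and Steap4, which had 2 and 4 counts in TG9.1.1, too few to compare. Cp, ceruloplasmin, was highest in TG7.3.3, and 8 of the 15 tested genes were called lower on the left. S1pr3, a sphingosine-1-phosphate receptor, was at 6.35, 10.2 and 8.18 CPM on the left and at 8.43, 123.4 and 6.18 CPM on the right. Socs3, a feedback inhibitor of cytokine signalling through STAT proteins, was at 0.491, 0.692 and 0.649 CPM against 0.686, 7.54 and 1.38 CPM. The log2 fold change of Socs3 was -2.39 ± 0.75, and -0.76 without TG9.1.1, when the call was lost. Gfap, the intermediate filament of astrocytes, was at 1496, 1974 and 1883 CPM against 1675, 4103 and 1559 CPM and was not called. Cd44 reached 34.2 CPM in TG9.1.1 against 3.16 to 5.83 CPM in the other libraries, Timp1, a metalloproteinase inhibitor, 9.05 CPM against 0 to 0.228 CPM, and Trim47, a ubiquitin ligase, 11.9 CPM against 0.211 to 1.17 CPM. The log2 fold changes of Cd44, Timp1, Trim47 and S1pr3 were -1.76 ± 0.73, -4.39 ± 1.7, -3.5 ± 1.1 and -2.48 ± 0.94. Without TG9.1.1 they were 0.01, 0.94, -0.85 and 0.18, and none was called. Serpina3n was at 231.2 CPM against 42.3 to 57.1 CPM, and Osmr, the oncostatin M receptor, at 20.3 CPM against 4.2 to 6.27 CPM. Tgm1, a transglutaminase, was at 9.44 CPM against 0 to 0.123 CPM but had too few counts in the other libraries to pass the filter on low counts, and was not tested.

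The pattern was not tied to the right side. In ELE mice Npy was at 0.769, 297.7 and 3.29 CPM on the left and at 6.15, 5.87 and 16.1 CPM on the right, with TG9.1.4, a left library, highest. Hspb1 was at 1.86, 68.6 and 0.615 CPM on the left and at 0.221, 0 and 20.9 CPM on the right, where TG9.1.4 and TG9.2.1 were the high libraries. Gfap was at 3907 CPM in TG9.1.4 and 3352 CPM in TG9.2.1 and between 1262 and 1890.4 CPM in the other 4. The pattern was thus seen in 3 of 12 mice, 1 left and 2 right, which the plot of these genes over 12 libraries shows.

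**Figure D4:**
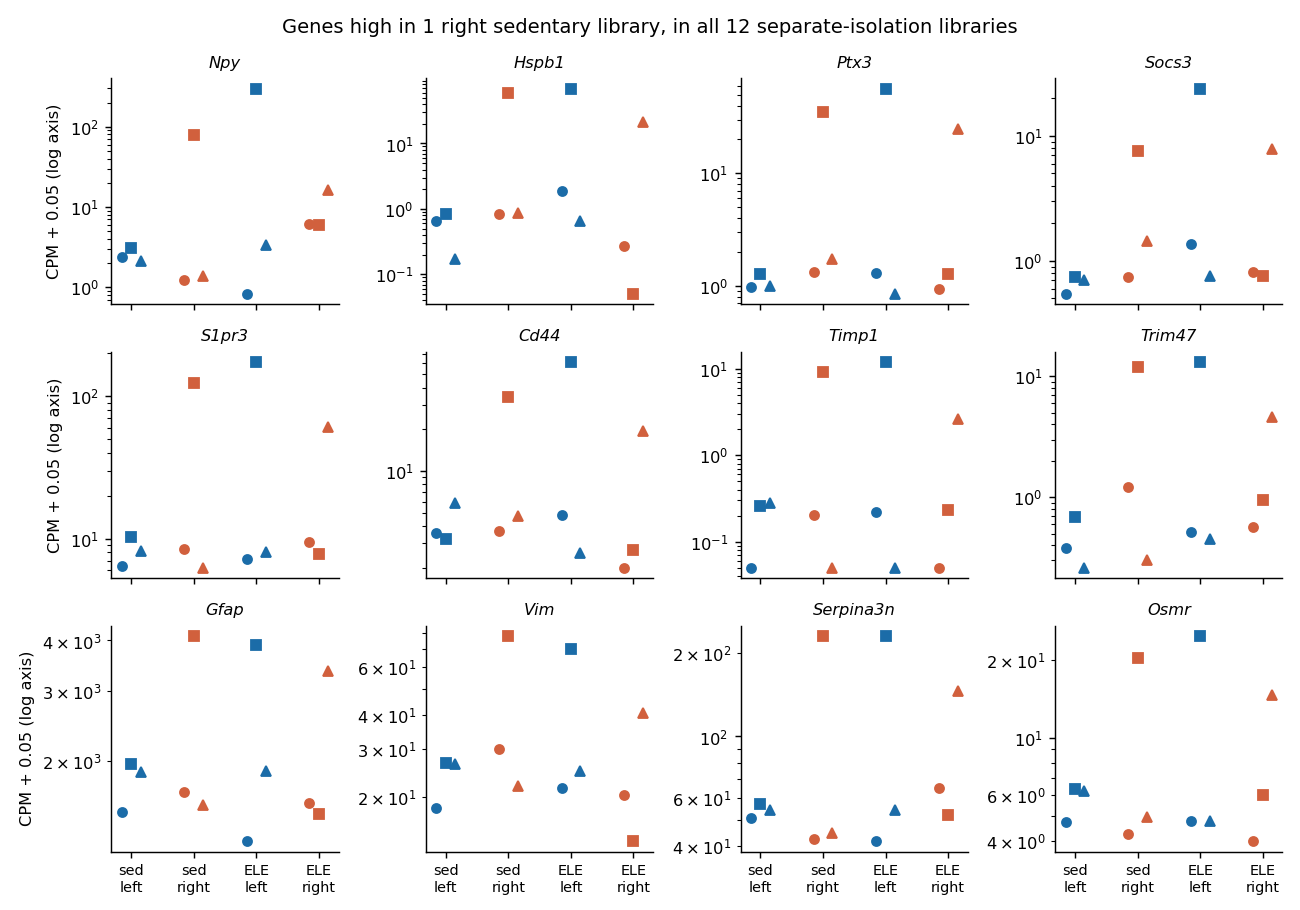
Each panel gives CPM plus 0.05 on a log axis for 1 gene in 12 separately isolated libraries, by exercise group and side, blue for left and orange for right. Right sedentary library TG9.1.1 (square), left ELE library TG9.1.4 (square) and right ELE library TG9.2.1 (triangle) lie above the other libraries in every panel.

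Promoters of 2 of these genes are shown because the genes moved together across mice; a match of letters is a description and not a binding site. The windows hold 250 bases before and 50 after the start site from RefSeq (GRCm38.p6), written 5′ to 3′ on the strand of the gene. Socs3 lies at chr11:117969317-117969616 (minus strand), and the capitals mark the one match to the STAT motif TTCNNNGAA on either strand. Hspb1 lies at chr5:135887669-135887968 (plus strand), and the capitals mark its 2 matches to GAANNTTC, the core of the heat shock element, on either strand.
Socs3: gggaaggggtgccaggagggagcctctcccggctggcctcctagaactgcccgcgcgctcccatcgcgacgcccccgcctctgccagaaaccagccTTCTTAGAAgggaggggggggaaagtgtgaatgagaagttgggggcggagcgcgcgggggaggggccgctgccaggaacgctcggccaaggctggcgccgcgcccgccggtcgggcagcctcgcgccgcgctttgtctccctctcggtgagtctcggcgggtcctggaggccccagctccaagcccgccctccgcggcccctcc
Hspb1: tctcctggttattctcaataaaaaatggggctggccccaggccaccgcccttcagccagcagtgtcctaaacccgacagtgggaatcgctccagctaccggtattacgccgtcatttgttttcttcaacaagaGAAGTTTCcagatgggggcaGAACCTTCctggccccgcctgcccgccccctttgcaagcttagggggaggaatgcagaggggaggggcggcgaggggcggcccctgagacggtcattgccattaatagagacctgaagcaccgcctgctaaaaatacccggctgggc
Of the 18 reactive astrocyte genes with Npy and Trim47 added, 19 had a promoter in the table, and 5 held the STAT motif (Emp1, Gfap, Socs3, Steap4 and Tgm1), against 8.3% of all 32851 promoters of 300 bases. Only Hspb1 held the heat shock motif, against 7.86% of all promoters. A gene was counted if any of its promoters held the motif, while the shares of all promoters count each promoter singly. The measures are thus unlike, the genes were picked after their values were seen, and an excess of either motif was not tested.

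Loci that hold ribosomal RNA sequence were higher in 2 left libraries, TG7.3.4 and TG9.1.2. Gm42418 was at 1132, 1069 and 502.4 CPM on the left and at 529.3, 602 and 507.6 CPM on the right. Thus TG9.2.4 lay below the right libraries, and the log2 fold change of 0.72 ± 0.24 came from the other pair. CT010467.1, annotated as rRNA on the opposite strand of the same place, was at 1073, 994.5 and 470.1 CPM against 470.2, 552.9 and 446 CPM. Gm42418 (chr17:39846958-39848788, plus strand) lies within the place of CT010467.1 (chr17:39846353-39848827, minus strand), with a longest identical run of 1244 bases on opposite strands. Their values may therefore not be independent. Counting took strand into account, and whether these loci share reads was not tested. Gm23935, a locus of 57 bases annotated as a miRNA (chr16:11144125-11144181, plus strand, GRCm38), was at 117.9, 119.8 and 57.9 CPM against 56.9, 41.5 and 47.6 CPM, without overlap. Its annotated transcript is given because the name alone does not tell what was counted.
Gm23935: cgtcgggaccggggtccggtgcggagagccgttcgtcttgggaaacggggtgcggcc
Lars2 was called with these loci and had its highest values in the same 2 libraries. The longest run of identical bases between the main Lars2 transcript and Gm42418, CT010467.1 or Gm23935 on either strand was 13 bases, shorter than a read. Only exact runs were looked for, and other ribosomal RNA sequence and other Lars2 transcripts were not compared. Whether reads of ribosomal RNA were counted for Lars2 was not tested. The list of these loci held Lars2 too, and of its 5 tested genes 4 were called, all higher on the left. Without Lars2 it was 3 of 4, and the summed level was 2324, 2185 and 1032 CPM on the left against 1059, 1198 and 1002 CPM on the right. Without TG9.2.4, Lars2, Gm42418, CT010467.1 and Gm23935 were the 4 genes past adjustment, each at an edgeR adjusted p = 0.0358. Without TG7.3.4 the calls of Gm42418 and CT010467.1 were lost, at 0.52 and 0.58. That of Gm42418 was also lost without TG9.1.2, at 0.58, while Lars2 and Gm23935 kept theirs in every fit without 1 library.

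Lists for the excitatory cells of the hippocampal subfields gave 1 call between the sides. Prox1, the transcription factor of dentate granule cells, was at 109.9, 133.1 and 111.8 CPM on the left and at 147.2, 111.3 and 133.6 CPM on the right, within overlapping ranges. Lists for granule cells, mossy cells, CA1 and CA2 and CA3 had median log2 fold changes of -0.01, -0.01, -0.08 and 0.08, and of their 15, 9, 13 and 15 tested genes only Cacng5 was called. The summed level of the CA1 list did not overlap, at 1367, 1353 and 1305 CPM on the left and at 1435, 1404 and 1458 CPM on the right, while in ELE mice it was 1315, 1242 and 1416 CPM on the left and 1391, 1476 and 1358 CPM on the right, with overlap. Cacng5, an auxiliary AMPA receptor subunit of the TARP family enriched in CA2, was at 5.37, 5.61 and 6.99 CPM on the left and at 10.6, 7.05 and 7.14 CPM on the right. Its log2 fold change was -0.46 ± 0.2, and -0.25 without TG7.3.3. The call of Cacng5 was lost without TG7.3.3, TG7.3.4 or TG9.1.2. Mpped1, a CA1 marker, was at 286.8, 269.8 and 273 CPM on the left against 303.2, 329.9 and 302.5 CPM on the right and did not overlap, but its log2 fold change of -0.17 ± 0.077 was below the fold threshold.

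Lists of dorsal and ventral pole markers, neocortical, striatal and thalamic neurons had medians of -0.07, -0.07, -0.09 and 0.03 and 0 called genes of 18, 15, 16 and 14 by edgeR. TRAP takes RNA from cells that have expressed Emx1, so attached tissue with few such cells may leave little trace. Whether the dissections were cut alike can therefore not be read from these lists. Of the cerebellar and hindbrain list 4 of 10 genes could be tested, and the Hox genes in it were without a count. Cbln1, a synaptic organiser, was the one called there, at 7.73, 5.17 and 8 CPM on the left and at 8.14, 11.8 and 10.7 CPM on the right, and its call was lost in 3 of 6 fits without a library. Among marker genes of inhibitory neurons, Gad1 was at 33.6, 43.6 and 31.7 CPM against 41.1, 48.1 and 34.2 CPM. The 2 genes of 19 in that list that were called were Npy and Dlx5, in opposite directions. Mki67, a marker of dividing cells, was at 1.16, 0.786 and 0.667 CPM on the left and at 1.77, 1.1 and 2.07 CPM on the right. Mki67 was the one called of 14 genes for immature neurons and neurogenesis, with overlapping sides and a call that was lost in 4 of 6 fits without a library, and Dcx, the marker of migrating neuroblasts, was at 14.2, 18.3 and 21.9 CPM against 11.8, 19.3 and 18.2 CPM.

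Glutamate receptor genes, for which left and right synapses have been compared in other work, had standard errors of the log2 difference between 0.079 and 0.62, the last for Grin3b, an NMDA receptor subunit that was low here. Grin1, the obligatory NMDA receptor subunit, was at 403, 485 and 408.3 CPM on the left and at 451.1, 440.7 and 383.1 CPM on the right, a log2 difference of 0.02 ± 0.1. Grin2a was at 303.8, 368.1 and 327.6 CPM against 353.6, 315.7 and 381.7 CPM, -0.07 ± 0.1. Grin2b, the subunit for which hemispheric differences at CA1 synapses are known, was at 674.6, 783.7 and 718 CPM against 821.2, 652.6 and 801 CPM, -0.06 ± 0.1. For each of these subunits the ranges of the sides overlapped. The values are ribosome-bound RNA of a whole hippocampus and do not measure subunits at synapses. Of 7 NMDA receptor genes 0 were called by edgeR, the lowest unadjusted p being 0.0795 for Grin3a, at 38.6, 31.6 and 37.3 CPM on the left and at 36, 48.9 and 42.6 CPM on the right. Grin3b did not overlap, at 0.21, 0.168 and 0.105 CPM on the left and at 0.243, 0.245 and 0.327 CPM on the right, with a log2 difference of -0.75 ± 0.62 on 27 left and 41 right counts.

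Gria1, the AMPA receptor subunit GluA1, was at 1002, 1085 and 949.4 CPM on the left and at 1122, 956.8 and 1011 CPM on the right, a log2 difference of -0.02 ± 0.089. Gria2, Gria3 and Gria4 had log2 differences of -0.03 ± 0.1, -0.03 ± 0.085 and -0.08 ± 0.16. Grik3, a kainate receptor subunit, was the one gene called in the lists of glutamate and GABA-A receptors, at 26.3, 22.9 and 37.8 CPM on the left and at 42.5, 37.9 and 37.6 CPM on the right. TG9.2.4 lay within the right range, the log2 difference was -0.44 ± 0.17, and the call was lost without TG7.3.3, TG7.3.4 or TG9.1.2. Metabotropic glutamate receptor and GABA-A receptor genes had medians of -0.03 and 0.02 with 0 called of 7 and 14 by edgeR.

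Genes of the MHC class I pathway also gave 0 calls of 10 by edgeR, with a median of 0.12 and a lowest unadjusted p of 0.0941. B2m, the light chain of class I molecules, was at 49.1, 46.8 and 44.9 CPM on the left and at 45.5, 38.8 and 44.4 CPM on the right, a log2 difference of 0.13 ± 0.092. Pirb itself was at 0.0527 to 0.281 CPM and was not tested. Of the genes that set the left-right axis of the embryo, Nodal, Gdf1 and Cfc1 had no count in the 6 libraries. Lefty1, the Nodal antagonist, was at 27, 27.3 and 21 CPM against 25, 24.6 and 20.7 CPM. Of 12 tested genes in that list 0 were called by edgeR, with a lowest unadjusted p of 0.311.

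In the lists for recent activity, time of day and stress, 1 gene was called. Immediate early, circadian clock and glucocorticoid target lists had medians of 0.09, -0.03 and -0.01 and 0 called of 18, 18 and 10 by edgeR. Fos was at 5.02, 7.3 and 9.36 CPM on the left and at 5.4, 14.5 and 6.23 CPM on the right, and Per1 at 58.5, 57.4 and 54.4 CPM against 69.1, 58.2 and 64.2 CPM. Of 14 heat shock genes Hspb1 was the one called, and of 17 tested neuropeptide genes Npy.

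ELE mice, none of which entered the sedentary comparison, were used to see the same genes in other animals. Their left libraries exceeded the right ones for 151 of 17696 genes and were lower for 90 by the same criteria, 0.853% and 0.509%, or 1.36% together. Of the 136 genes higher on the left in sedentary mice 126 were tested in ELE mice, and 63 of them, or 50%, had the same sign there, against 51.8% of all genes above 0. Of the 161 lower genes 156 were tested and 57 had the same sign, or 36.5%, against 48.2% of all genes below 0. The genes called in the same direction in both were Traf5, a signalling adaptor of TNF receptors, higher on the left, and Ly6g6e and Prss12, lower on the left. Prss12, the serine protease neurotrypsin, had log2 fold changes of -0.77 and -0.63, Traf5 1.41 and 2.59, and Ly6g6e -1.62 and -1.14. Without TG9.1.1 the sedentary calls of all 3 were lost, at log2 fold changes of -0.29 for Prss12, 1.16 for Traf5 and -0.61 for Ly6g6e, for which TG9.1.1 was 3.94-fold above the next library. The call of Traf5 was also lost without TG9.2.3 or TG9.2.4, and that of Prss12 without TG9.1.2. These 3 were named after their values were seen. Emp1 and Gm23935 were called in opposite directions.

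Of 43 genes named by the rule, called in sedentary mice and tested in ELE mice, 14 had the same sign in both. Ermn was among them, at 17.1, 17.4 and 18.3 CPM in ELE left libraries and at 12.9, 15.1 and 13.9 CPM in ELE right ones, without overlap. Its log2 fold change in ELE mice was 0.33 ± 0.13 with an unadjusted p of 0.0273 by edgeR and was below the fold threshold. Cyp26a1 was at 0.8, 0.339 and 0.492 CPM against 0.181, 0.277 and 0.0712 CPM in ELE mice, again without overlap, with 1.61 ± 0.76 and an unadjusted p of 0.0651. Fn1 was at 4.17, 11.7 and 4.48 CPM against 6.19, 6.18 and 6.37 CPM, with TG9.1.4 highest, and its log2 fold change was 0.12. Lars2 had the opposite direction, at 105.8, 114.4 and 83.2 CPM on the left and at 131.1, 134.5 and 120.6 CPM on the right, without overlap. The test of the difference between exercise groups, the interaction of exercise and side over 12 libraries, called 414 of 18810 genes, or 2.2%, and 0 after adjustment by edgeR (6 without the filter on low counts and 2 without TG9.2.4), where 490 had an unadjusted p under 0.05 and DESeq2 gave 2 after adjustment. For Lars2 the interaction was -1.4 on the log2 scale, with an unadjusted p of 0.000108 and an adjusted p of 1 by edgeR. The genes past adjustment in DESeq2 were Lars2, at an adjusted p = 0.00105, and Gm23935, at an adjusted p = 0.0385.

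**Figure D5:**
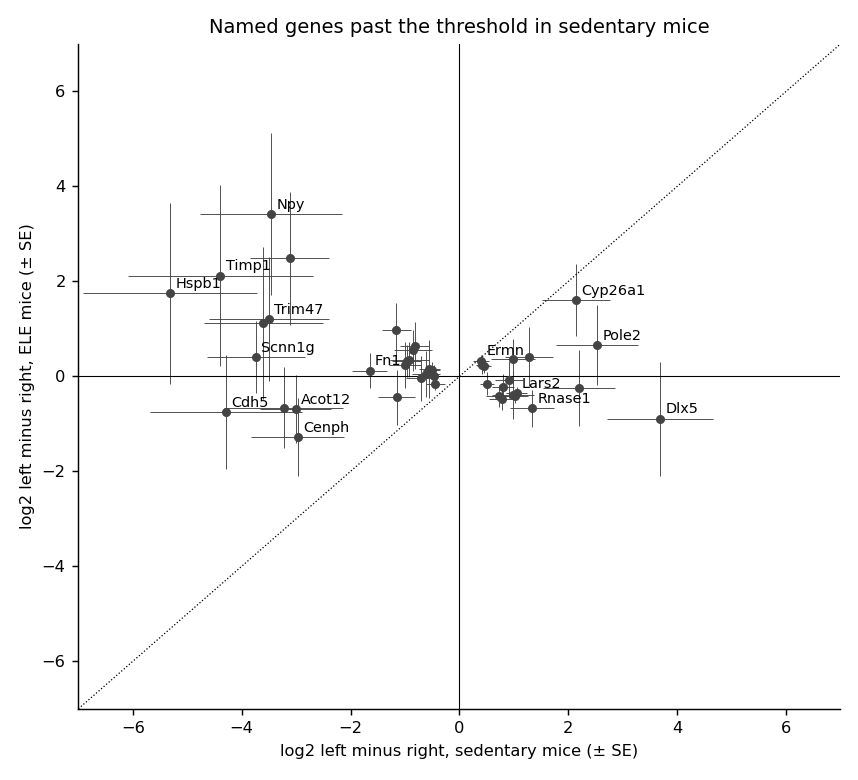
Each point is 1 of 43 named genes called in sedentary mice, with its log2 fold change of left minus right in sedentary mice on the horizontal axis and in ELE mice on the vertical axis, both ± SE; the dotted line marks equal values. In 14 of the 43 the signs are the same, Cyp26a1 and Pole2 lying toward the upper right, and Npy, Hspb1 and Timp1 are negative in sedentary and positive in ELE mice.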

How the data were processed

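Reads were made by the authors with a directional poly(A) kit as 100-base pairs, aligned to GRCm38.p6 with STAR 2.7.3a, stripped of duplicates with Picard 1.87 and counted per gene on the exons with strand taken into account. The deposited values are raw counts, not normalized, for 55335 Ensembl genes, of which 55154 were matched to GENCODE M21 symbols without their version and 54587 with it. Duplicate removal lowers the counts of abundant short transcripts. The columns name mice, and their groups were taken from the study's sample quality table. A second table, of wild-type tissue with 24 columns, was not used here.

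Genes with few counts were removed with filterByExpr, counts were scaled by TMM, and left and right were compared with edgeR 4.0.16's quasi-likelihood test (R 4.3.3) on the 6 sedentary libraries. CPM used the same factors. Calls used the thresholds of the study's methods, p under 0.05 before adjustment and a log2 fold change beyond 0.3875 in either direction, which the study applied to DESeq2's Wald test. The SE is the log2 fold change divided by the square root of F. With 3 mice a side, an exact permutation test cannot give a p below 0.1. ELE libraries and the interaction were fitted likewise.

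On simulated counts with these means and library sizes, 84% of genes given a log2 difference of 1 were called. For those given 2 it was 99% and for unchanged genes 2.88%, among 17333 genes. After adjustment 59% and 97% of the changed genes were found. For the interaction the shares called were 72%, 98% and 4.19% among 17624 genes, and 48% and 89% of the changed genes were found after adjustment. Differences were given only to genes above a low count. The spread followed the fitted trend, with no library made to stand apart. The shares therefore do not carry over to low genes or to genes set by 1 library. Alternatives were DESeq2 1.42.0, median-of-ratios size factors, other filters and call rules, all 12 libraries, a block for the first part of the mouse number, and leaving out each library. A fold of 1.3 and 2 fits without the libraries high in Npy, Hspb1 and Ptx3 were added after the data were seen.

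Named genes were, per direction, the 12 protein-coding called genes of smallest p without overlap and the 5 of largest change at a mean of at least 1 CPM, every called gene of a list, the first 3 genes of a list where described, and NMDA and AMPA receptor subunits. The members and lists were chosen with earlier results of these data known, and the reactive astrocyte list after its values were seen. Some genes that these rules select are not reported here.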

Additional observations from a re-analysis of the deposited data

Results flagged for a closer look

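For 2 of the named genes called in sedentary mice the left-right difference had opposite directions in sedentary and ELE mice, with every left library on one side of every right library in both. Lars2 was higher on the left in sedentary mice and lower on the left in ELE mice, and the interaction was -1.4 on the log2 scale with an adjusted p of 1 by edgeR and of 0.00105 by DESeq2. Gm42418, CT010467.1 and Gm23935, also called higher on the left in sedentary mice, had ELE log2 fold changes of -0.41, -0.47 and -0.42. The ELE sides overlapped for each, and Gm26917, not called in sedentary mice, was at 0.48. Their bearing on Lars2 was not tested. Rnase1 was at 1, 1.05 and 1.46 CPM on the left and at 0.598, 0.306 and 0.49 CPM on the right in sedentary mice, and at 0.892, 0.696 and 0.791 CPM on the left and at 1.59, 1.03 and 1.17 CPM on the right in ELE mice. Its interaction was -2 with an unadjusted p of 0.00196 and an adjusted p of 1 by edgeR and of 0.962 by DESeq2. Of 17171 genes tested in both groups of mice, 48, or 0.28%, had sides without overlap in both and opposite directions, and 40, or 0.233%, the same direction.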

How the results depend on the processing

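The 297 sedentary calls became 428 with DESeq2, of which 218 were shared, 299 with median-of-ratios size factors, 303 at a fold of 1.3, chosen after the data were seen, 440 without the fold threshold, 721 without the filter on low counts, 179 with a mean of at least 1 CPM, 189 with 12 libraries in the fit and 0 after adjustment (37 after adjustment without the filter, 4 without TG9.2.4). Without 1 library they numbered 260 to 650. The share of calls higher on the left was 45.8%, 36.8% without the filter, 37.6% with DESeq2 and 36.6% to 50.6% without 1 library, the last without TG9.2.3 and the one share above 50%. Mice that share the first part of their number had correlations of their deviations from the side means of 0.024, 0.0025 and -0.092, and 0 of 6 libraries correlated best with its own number, so the numbers were not taken to pair the mice; the replicate block gave 271 sedentary calls, 198 for ELE and 415 for the interaction. The 241 ELE calls became 469 with DESeq2, 501 without the filter and 549 without the 2 libraries high in Npy, Hspb1 and Ptx3, and 253 to 599 without 1 library. The 414 interaction calls became 1041 without the filter and 874 without the 3 libraries of that kind, and 354 to 718 without 1 library. Where a count moved, the cause was not tested. Without 1 library the log2 fold change of Npy was between -4.02 and 0.98, of Timp1 between -4.98 and 0.94, of Cd44 between -2.22 and 0.01 and of S1pr3 between -3 and 0.18, each positive only without TG9.1.1. Of 50 called genes named, 50 kept their call with other size factors and 50 without the filter, 41 with the block and 35 with 12 libraries. At the depth of these libraries, 3 counts in a library corresponded to between 0.0526 and 0.0664 CPM. Summed list levels without TMM factors stayed within 1 SD.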
